A study of Mus musculus with 2 samples.

Results

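The genes described here run 3 pathways that feed the mitochondria of the heart: 16 genes of the TCA cycle and its exchange reactions, 2 genes of ketone body use and 17 genes of branched-chain amino acid breakdown. They were chosen by name, with no measured value in the rule, and each of the 35 symbols matched 1 gene identifier among 55536 annotated genes. All 35 had enough reads to be compared between animals, with 2557 reads over both libraries for the lowest.

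The samples were hearts of 2 female mice at an age of 2 months, first-generation hybrids of the strain B6CASTF1/J, which carry 1 genome of C57BL/6 and 1 of CAST origin. Neither animal carried a labelled treatment or engineered allele, and together they form 1 group (n = 2). Each gave 1 library from 300 ng of total RNA, depleted of ribosomal RNA and mixed with ERCC spike-ins, which are synthetic transcripts of known amount. The labels give the hearts different replicate and animal numbers but the same donor entry, so that they come from separate animals rests on those numbers, and the SDs and animal comparisons rest on it too. With 1 library each the p-values measure the distance between 2 libraries and not the effect of any condition.

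The TCA cycle oxidises acetyl-CoA in the mitochondrial matrix and passes the electrons to the respiratory chain, and the malate-aspartate shuttle brings reducing equivalents from the cytosol into the same matrix. Heart muscle also takes up ketone bodies and branched-chain amino acids, which enter the cycle as acetyl-CoA or succinyl-CoA. Ketone bodies need few dedicated steps, while leucine, isoleucine and valine share a transaminase and a keto acid dehydrogenase and then run through separate chains of enzymes.

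Gene reads, the reads assigned to annotated genes, numbered 41862417 in animal 1 and 41790009 in animal 2. The cardiomyocyte markers Myh6, Tnnt2, Tnni3, Actc1, Myl2 and Ryr2 summed to 25829.5 TPM in animal 1 and 29945.8 TPM in animal 2, while 4 of 5 liver markers stayed under 1 TPM. TPM, the share of transcripts after correction of reads for transcript length, is the scale of every level given here. TPM ran higher in animal 2 as a whole, by a median of 0.22 on the log2 scale over 16133 genes, and the TPM of each of the 35 genes was higher in animal 2, so the SDs include this shift of scale. Markers of other cell types also differed: on scaled reads all 5 endothelial markers and 4 of 5 fibroblast markers were higher in animal 2 beyond counting error, and the 5 white adipocyte markers summed to 21.3 TPM in animal 1 and 55.2 TPM in animal 2. Of the 6 cardiomyocyte markers, only Actc1 was higher in animal 2 on scaled reads, while Myh6 (log2 ratio -0.08), Ryr2 (-0.08) and Tnnt2 (-0.03) were lower beyond counting error. In such bulk tissue, fewer cells of a type and less RNA per cell cannot be told apart.

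The TCA cycle genes stood far above the other pathways in both hearts. Their 16 members summed to 5393 TPM in animal 1 and 6300.03 TPM in animal 2 (mean 5846 ± 641, SD, n = 2) and took 0.922% and 0.968% of gene reads. The 17 branched-chain members summed to 911 and 1038 TPM (mean 974 ± 90.01), and the 2 ketone members to 605 and 683 TPM (mean 644 ± 55.5). Together the 35 genes took 1.18% of gene reads in animal 1 and 1.24% in animal 2.

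The median member stood at 283 TPM in the TCA cycle and at 39.3 TPM in branched-chain breakdown. The 2 ketone genes lay far apart, with Oxct1 at 574 TPM and Bdh1 at 69.6 TPM, so their midpoint of 322 TPM describes neither. Both stood above the branched-chain median, although the ketone sum was the lowest, and only Oxct1 stood above the TCA median. The TCA median was 7.42 times the branched-chain median in animal 1 and 6.98 times in animal 2. Of the 16 TCA members, 14 lay above Ivd, the highest branched-chain member, and only Suclg2 and Pcx lay below it. No test was made between the pathways, since their members share the same 2 libraries.

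Among 11005 nuclear protein-coding genes with at least 1 TPM in both animals, the median level was 8.85 TPM and the 90th percentile 49.4 TPM. Above that percentile were 15 of 16 TCA members, both ketone members and 7 of 17 branched-chain members. All 35 lay above the median of these genes, and 34 lay above the 75th percentile of 21.2 TPM, the exception being Pcx. The ranking hardly moved between animals, with a Spearman correlation across the 35 genes of 0.998, given as a description since the genes are not independent of each other.

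**Figure D1:**
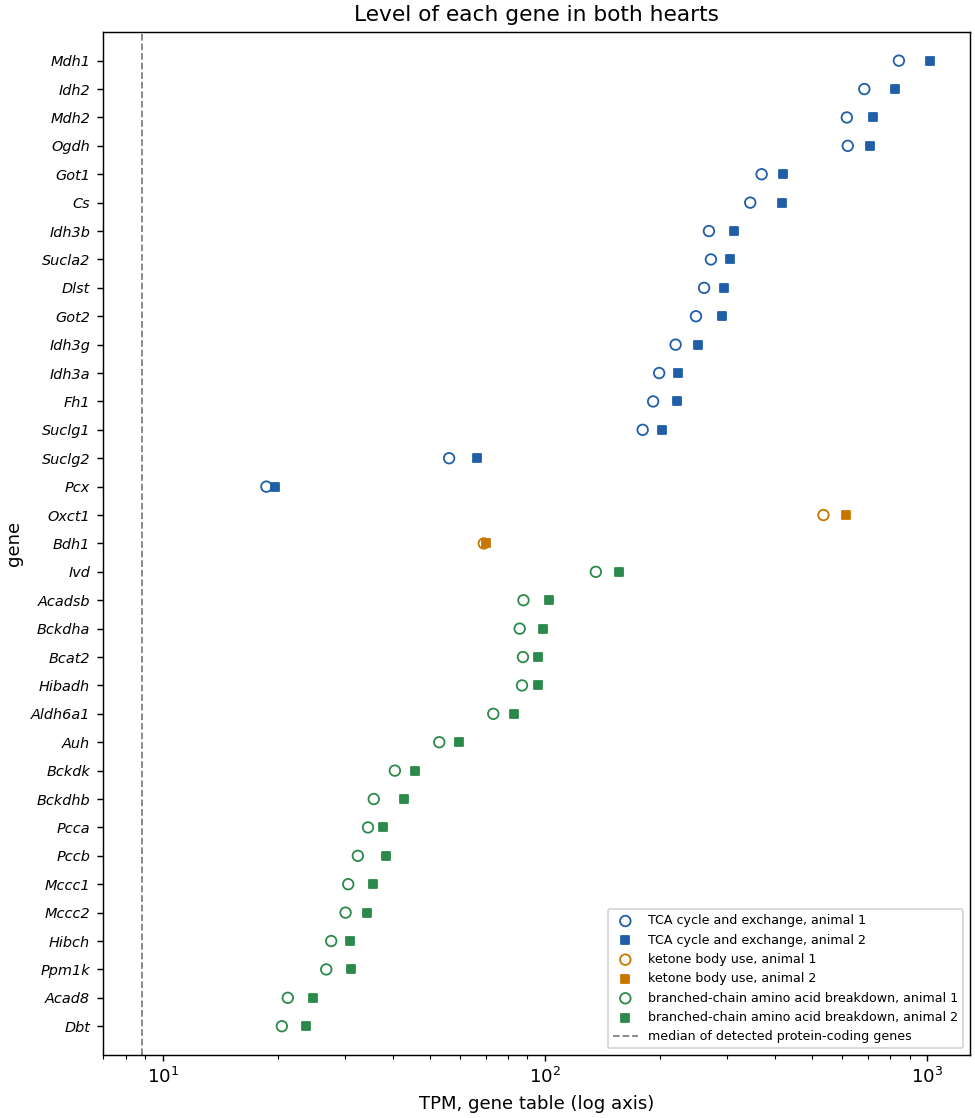
TPM of each of the 35 genes in animal 1 (open circles) and animal 2 (filled squares) on a log axis, coloured by pathway, with the median of detected protein-coding genes (8.85 TPM) as a dashed line. The TCA genes run from 19.2 to 930.7 TPM and 14 of them stand above the highest branched-chain gene, Ivd, at 146 TPM.

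Citrate synthase, the enzyme that joins acetyl-CoA to oxaloacetate, was encoded by Cs (ENSMUSG00000005683.8, chromosome 10, 128337734 to 128362479 on mm10) at 344 TPM in animal 1 and 417 TPM in animal 2 (mean 381 ± 51.1). The next oxidation can be made by an NAD-dependent enzyme, built from the catalytic subunit of Idh3a and the regulatory subunits of Idh3b and Idh3g, or by the NADP-dependent enzyme of Idh2. Idh2 (ENSMUSG00000030541.16, chromosome 7, 80094846 to 80115392) was at 685 and 826 TPM, and its mean of 755 ± 99.7 TPM was the second highest of all members. The NAD-dependent subunits stood lower and close to each other: Idh3a at 199 and 223 TPM (mean 211 ± 16.9), Idh3b at 269 and 312 TPM (mean 290.1 ± 30.5), and Idh3g at 219.7 and 252 TPM (mean 236 ± 22.9). Idh2 was 2.99 times the mean of these subunits in animal 1 and 3.15 times in animal 2, and its level was close to the sum of all 3, which was 687 and 787 TPM.

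The catalytic subunit of the NAD-dependent enzyme was thus the lowest of its subunits, with Idh3b at 1.35 times Idh3a in animal 1 and 1.40 times in animal 2. A large part of its signal was not assigned to the transcript that encodes the whole protein. Idh3a-205, the full coding transcript, held 57.1% of the TPM of the gene, and Idh3a-204, annotated as a target of nonsense-mediated decay, held 40.9%. In the second transcript table, made from the same reads by another quantification, the shares were 40.1% and 59.5%. With protein-coding transcripts alone, a setting chosen after seeing the data, Idh3b was 2.36 times Idh3a. Idh3a-204 carries an exon of 95 bases that Idh3a-205 lacks, and its reading frame ends inside it. The start of that exon (chromosome 9, 54592161 to 54592184, plus strand of mm10) is shown because it holds the stop codon that sets the transcripts apart, here in capitals.
Idh3a-204: ggcatcgtttgcattactattTAA

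The 2-oxoglutarate dehydrogenase complex was represented by Ogdh, its decarboxylating subunit, and Dlst, its acyltransferase core. Ogdh (ENSMUSG00000020456.17, chromosome 11, 6291633 to 6356642) reached 619.7 TPM in animal 1 and 708 TPM in animal 2 (mean 664 ± 62.7), and Dlst 261 and 294 TPM (mean 277 ± 23.3), a ratio of 2.38 and 2.41. The ratio was larger in the second quantification, at 2.64. Ogdh-201 held 66.4% of the gene's TPM in the first transcript table. Ogdh-204, also protein-coding, held 22.0% there but 0.107% in the second table. Dlst-201 held 69.7% in the first table and 39.4% in the second, where Dlst-209, annotated for nonsense-mediated decay, and the retained-intron transcript Dlst-208 took 20.9% and 17.8%.

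Succinyl-CoA ligase pairs a common alpha subunit, encoded by Suclg1, with a beta subunit that sets whether ATP or GTP is formed. Sucla2, which encodes the ADP-binding beta subunit, was at 272 TPM in animal 1 and 305 TPM in animal 2 (mean 288 ± 23.4), while Suclg2, which encodes the GDP-binding one, was at 56.2 and 66.5 TPM (mean 61.3 ± 7.32). Sucla2 thus made up 82.9% and 82.1% of both beta subunits, and 82.6% on average in the second quantification. The ratio moved little with the table used, since Sucla2 was 4.71 ± 0.181 times Suclg2 on deposited TPM, 4.74 times in the second quantification and 4.60 times with protein-coding transcripts alone. Suclg1 was at 180.2 and 203 TPM (mean 191 ± 15.8), below the beta subunits together, which reached 1.82 and 1.83 times its level. Sucla2-203 and Sucla2-201, both protein-coding, held 57.8% and 38.5% of TPM in the first table and 48.4% and 50.7% in the second.

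Fumarase, encoded by Fh1, stood at 192 and 221 TPM (mean 207 ± 20.9). Its major transcript Fh1-201, which is protein-coding, held 51.7% of TPM and 85.5% of the reads in the first table. Fh1-205, a protein-coding transcript of 542 bases, held 30.6% of TPM there. In the second table Fh1-204, annotated for nonsense-mediated decay, and the retained-intron transcript Fh1-202 held 36.3% and 35.8% of TPM, against 27.6% for Fh1-201, and these transcripts are 599 and 539 bases long against 2636.

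Malate dehydrogenases were among the most abundant members. Mdh1, the cytosolic enzyme of the malate-aspartate shuttle (ENSMUSG00000020321.15, chromosome 11, 21556787 to 21572367), was the highest of the 35 genes in the gene table with 843 TPM in animal 1 and 1018 TPM in animal 2 (mean 931 ± 124). Mdh2 (ENSMUSG00000019179.10, chromosome 5, 135778480 to 135790398), which encodes the mitochondrial enzyme that closes the cycle, was at 616 and 724 TPM (mean 670.0 ± 75.8). Mdh1 was 1.37 and 1.41 times Mdh2 on deposited TPM, but 1.08 times in the second quantification and 2.27 times with protein-coding transcripts alone, so the size of this ratio rests on which transcripts are counted. In the second quantification Ogdh (1201 TPM) and Idh2 (883 TPM) stood above Mdh1 (853 TPM). Of Mdh1, 40.2% of TPM in the first table went to Mdh1-202, a coding fragment of 549 bases, against 11.4% in the second.

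Mdh2-203, annotated for nonsense-mediated decay, held 38.7% of Mdh2 TPM and 32.2% of its reads in the first table, and 14.5% of TPM in the second. It lacks 1 coding exon of 169 bases (chromosome 5, 135783305 to 135783473, plus strand of mm10). That exon of Mdh2-201 is shown in capitals with 20 bases of the neighbouring exons on each side, followed by the same flanks as Mdh2-203 joins them, because this exon and its junctions set the coding parts of both transcripts apart.
Mdh2-201: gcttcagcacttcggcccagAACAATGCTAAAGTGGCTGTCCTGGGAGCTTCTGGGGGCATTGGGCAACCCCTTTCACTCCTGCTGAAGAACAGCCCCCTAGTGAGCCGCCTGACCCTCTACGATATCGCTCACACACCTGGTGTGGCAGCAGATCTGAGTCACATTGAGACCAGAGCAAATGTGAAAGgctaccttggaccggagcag
Mdh2-203: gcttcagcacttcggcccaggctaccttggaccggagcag

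The aspartate aminotransferases complete the shuttle, with Got1 in the cytosol and Got2 in the mitochondria. Got1 was at 369 and 421 TPM (mean 395 ± 36.5) and Got2 at 248 and 291 TPM (mean 269.9 ± 30.4), a ratio of 1.48 and 1.44. In both shuttle pairs the cytosolic gene was therefore the higher one, in both animals and in both quantifications. Pcx, which encodes pyruvate carboxylase, the enzyme that refills oxaloacetate from pyruvate, was the lowest of all 35 members in the gene table at 18.7 and 19.7 TPM (mean 19.2 ± 0.728). In the second quantification it was at 26.8 TPM and Dbt, at 20.7 TPM, was below it. Its major transcript Pcx-204 held 44.2% of TPM, with the rest in other coding transcripts, and the second table gave 48.1% to Pcx-205, which was at 0 in the first.

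The other genes of the cycle and its exchange came from a list of 13 beside the members. The succinate dehydrogenase subunits were at 567 (Sdha), 459 (Sdhb), 442 (Sdhc) and 241 TPM (Sdhd). Dld, the dehydrogenase subunit shared by the pyruvate, 2-oxoglutarate and branched-chain complexes, was at 155 ± 12.7 TPM. In all, 6 of the 13 were at 100 TPM or more.

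Ketone body use rests on Bdh1, which oxidises beta-hydroxybutyrate to acetoacetate, and Oxct1, the transferase that activates acetoacetate with CoA taken from succinyl-CoA and is the committed step outside the liver. Oxct1 (ENSMUSG00000022186.14, chromosome 15, 4026383 to 4155344) was at 535 TPM in animal 1 and 613 TPM in animal 2 (mean 574 ± 54.9), in the range of the most abundant TCA genes. Bdh1 (ENSMUSG00000046598.15, chromosome 16, 31422280 to 31458901) was at 69.2 and 70.04 TPM (mean 69.6 ± 0.573), so the TPM shift seen at the other members was almost absent from it. Oxct1 was 7.73 times Bdh1 in animal 1 and 8.75 times in animal 2, against 12.3 times in the second quantification.

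Both ketone genes divided their signal over several transcripts. The coding transcript Oxct1-201 held 52.6% of TPM and 88.2% of the reads. The rest of the TPM was in Oxct1-203 (24.0%) and Oxct1-202 (22.8%), processed transcripts of 699 and 480 bases without a reading frame. Bdh1 was the only member whose major transcript differed between animals, since the coding Bdh1-203 held 28.5% and 30.2% of TPM while the retained-intron transcript Bdh1-205 of 438 bases held a nearly equal 29.3% on average. By reads Bdh1-203 held 66.3%. In the second table the major one was Bdh1-202, also coding, at 43.7%.

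Of 8 further ketone genes, Acat1, the mitochondrial thiolase that splits acetoacetyl-CoA, was at 114 ± 16.002 TPM and was the only one above 100 TPM. The testis paralogs of Oxct1 were at or next to 0, with Oxct2a listed at 0 in both animals and Oxct2b at 0.010 TPM on average.

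Branched-chain breakdown begins with Bcat2, the mitochondrial aminotransferase, at 87.6 TPM in animal 1 and 96.1 TPM in animal 2 (mean 91.9 ± 5.996). Its cytosolic counterpart Bcat1 was at 0.36 and 0.44 TPM. Bcat2-201 held 42.6% of the gene's TPM in the first table and 89.6% in the second. Bcat2-202, which uses a splice acceptor 15 bases further on and so drops 15 coding bases (chromosome 7, 45585111 to 45585125, plus strand of mm10), held 20.9% in the first and 0 in the second. Bcat2-201 is 1772 bases long and Bcat2-202 1536, so they also differ outside these coding bases. The dropped coding bases are few enough to print whole, in capitals between 20 bases of the exon on each side of them.
Bcat2-201: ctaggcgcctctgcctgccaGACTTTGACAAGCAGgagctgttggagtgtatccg
Bcat2-202: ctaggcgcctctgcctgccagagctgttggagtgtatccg

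The branched-chain keto acid dehydrogenase is the irreversible step. Its alpha subunit gene Bckdha was at 85.9 and 99.2 TPM (mean 92.5 ± 9.36), its beta subunit gene Bckdhb at 35.7 and 42.9 TPM (mean 39.3 ± 5.08), and Dbt, which encodes the acyltransferase core, at 20.5 and 23.8 TPM (mean 22.1 ± 2.31). The subunits therefore stood in the order Bckdha, Bckdhb, Dbt in both animals and both quantifications. Bckdha was 2.41 and 2.31 times Bckdhb, and 4.19 and 4.17 times Dbt, which was the lowest branched-chain member. The acyltransferase core was the lower partner in the 2-oxoglutarate complex as well, where Dlst stood below Ogdh.

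The complex is switched off by the kinase of Bckdk and on by the phosphatase of Ppm1k. Bckdk was at 40.5 and 45.6 TPM (mean 43.1 ± 3.60) and Ppm1k at 26.8 and 31.2 TPM (mean 29.0 ± 3.08), a kinase-to-phosphatase ratio of 1.51 and 1.46. The ratio stayed above 1 in the second quantification (1.85) and with protein-coding transcripts alone (1.35). Bckdk-202 held 55.4% of its gene's TPM and 55.0% in the second table.

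In the leucine arm, Ivd, which encodes isovaleryl-CoA dehydrogenase (ENSMUSG00000027332.11, chromosome 2, 118861954 to 118882909), was the highest branched-chain member with 136 TPM in animal 1 and 157 TPM in animal 2 (mean 146 ± 14.6). The next enzyme, methylcrotonyl-CoA carboxylase, is built from the products of Mccc1 and Mccc2, which were at 30.6 and 35.6 TPM (mean 33.1 ± 3.54) and at 30.1 and 34.2 TPM (mean 32.2 ± 2.93). Auh, the hydratase that follows, was at 52.9 and 59.5 TPM (mean 56.2 ± 4.66). The carboxylase subunits were almost equal, with Mccc1 at 1.02 and 1.04 times Mccc2. With protein-coding transcripts alone the order turned, to 0.683, since Mccc1-201 held only 65.5% of Mccc1 TPM. For Ivd, the coding transcript Ivd-201 held 60.5% of TPM and 89.3% of the reads, and the remaining TPM was mostly in 2 processed transcripts, Ivd-206 and Ivd-207.

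The propionyl-CoA carboxylase subunits, which act where isoleucine and valine join, also stood close together. Pcca was at 34.5 and 37.8 TPM (mean 36.1 ± 2.36) and Pccb at 32.4 and 38.4 TPM (mean 35.4 ± 4.23). Pcca was 1.06 times Pccb in animal 1 and 0.984 times in animal 2, so neither was the higher one in both animals. The second quantification gave 0.984 and protein-coding transcripts alone gave 0.765. The major transcript Pcca-201 held 73.5% of TPM in the first table and 60.8% in the second.

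In the valine and isoleucine arms, Acadsb, the dehydrogenase of the isoleucine chain, was at 87.9 and 102 TPM (mean 95.1 ± 10.2), and Acad8, its counterpart in the valine chain, at 21.3 and 24.8 TPM (mean 23.0 ± 2.49). The valine chain goes on through Hibch, a hydrolase at 27.6 and 31.00 TPM (mean 29.3 ± 2.40), and Hibadh, a dehydrogenase at 87.1 and 95.97 TPM (mean 91.5 ± 6.25). Aldh6a1, whose enzyme oxidises the semialdehyde to propionyl-CoA, was at 73.3 and 83.1 TPM (mean 78.2 ± 6.94). Within the valine chain Hibadh and Aldh6a1 thus lay well above Acad8 and Hibch, in both animals and with no overlap between the pairs.

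Acadsb had the lowest protein-coding share of any member in the first table. Protein-coding transcripts made up 9.47% of its TPM in the first table and 9.06% in the second, and only 0.827% of protein-coding genes were under 10%. Acadsb-204, a processed transcript of 600 bases, held 41.5% of TPM, and Acadsb-207, a transcript of 2827 bases annotated as retaining an intron, held 35.2% of TPM and 64.7% of the reads. Acadsb-207 shares most of its sequence with the coding transcript Acadsb-201, so these shares rest on how reads were assigned. That assignment was not tested. All of Acadsb-207 but its first 136 bases lies in exons of Acadsb-201. Those bases are the end of an intron (chromosome 7, 131429811 to 131429946, plus strand of mm10). They are shown with the first 20 bases of the shared exon in capitals, because they alone of Acadsb-207 lie outside the exons of Acadsb-201.
Acadsb-207: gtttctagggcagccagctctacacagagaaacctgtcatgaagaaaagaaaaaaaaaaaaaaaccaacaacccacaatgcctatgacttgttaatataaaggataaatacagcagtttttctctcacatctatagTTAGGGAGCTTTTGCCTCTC

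Aldh6a1 showed the widest gap between both transcript tables. The coding Aldh6a1-201 held 72.4% of TPM in the first table and 0.561% in the second, where the processed transcript Aldh6a1-204 held 98.2%. The level of the whole gene did not move with it, at 78.2 TPM in both. Aldh6a1-201 is 3399 bases long and Aldh6a1-204 3471. The coding part of the first exon of Aldh6a1-201 (chromosome 12, 84450889 to 84450939, minus strand of mm10) is shown with the start codon in capitals.
Aldh6a1-201: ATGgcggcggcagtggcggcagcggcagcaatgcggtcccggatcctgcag

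Acad8 and Hibch were also divided. Acad8-201, the coding transcript, held 42.1% of TPM in the first table, and in the second Acad8-203, annotated for nonsense-mediated decay, held 47.7%. Hibch-201 held 95.3% of TPM in the first table and 48.4% in the second, where a short retained-intron transcript, Hibch-206, held 24.7%.

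Of the 13 further branched-chain genes, only Echs1, the enoyl-CoA hydratase shared with fatty acid oxidation, was above 100 TPM, at 180 ± 17.9. Bcat1 and Agxt2 were under 1 TPM.

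Across all members, the major transcript was protein-coding in 34 of 35 genes in the first table and in 30 in the second, and it was the same transcript in both tables for 28. The share of a gene's TPM in protein-coding transcripts was under 70% for 9 members (25.7%), against 19.2% of protein-coding genes. Those were Idh3a, Dlst and Mdh2 of the TCA cycle, both ketone genes, and Ivd, Mccc1, Acadsb and Acad8 of branched-chain breakdown. By the second table the count was 11 members (background 22.8%), and 7 were under it in both. By pathway, protein-coding transcripts held 90.04% of TCA TPM, 74.8% of branched-chain TPM and 54.2% of ketone TPM. For 17 members, among them Cs, Idh2, Ogdh, Got2 and Bckdha, the share was at least 90% in both tables.

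**Figure D2:**
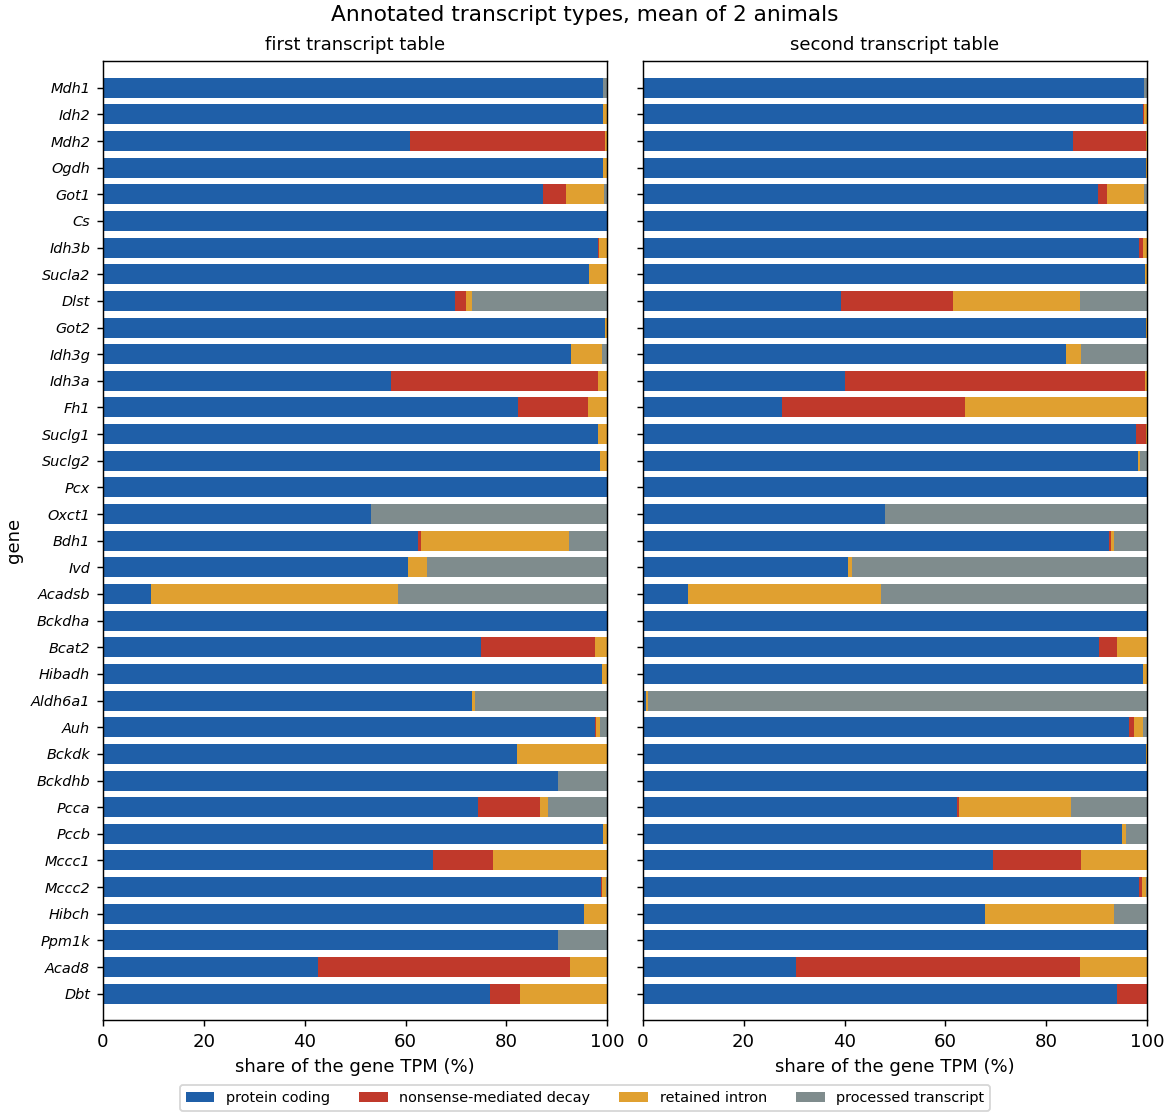
Share of each gene's TPM, in percent and as the mean of 2 animals, held by protein-coding, nonsense-mediated decay, retained-intron and processed transcripts, in the first (left) and second (right) transcript table. Most Acadsb TPM is assigned to transcripts annotated as non-coding in both panels (9.47% and 9.06% coding). The share assigned to coding transcripts of Aldh6a1 goes from 73.2% to 0.561%.

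The second quantification placed 30 of 35 members higher, with a ratio to the first between 0.894 (Bdh1) and 1.88 (Fh1). Of all protein-coding genes 90.2% were higher there, with a median ratio of 1.195. The members furthest apart were Fh1, Ogdh (1.81), Dlst (1.64), Hibch (1.60) and Ivd (1.53), and the members that fell below the first quantification beside Bdh1 were Mdh1 (0.916), Dbt (0.936) and Ppm1k (0.984), with Aldh6a1 at the same 78.2 TPM in both. The order of the 35 genes was nearly kept, with a Spearman correlation of 0.985 between quantifications, which share their reads.

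**Figure D3:**
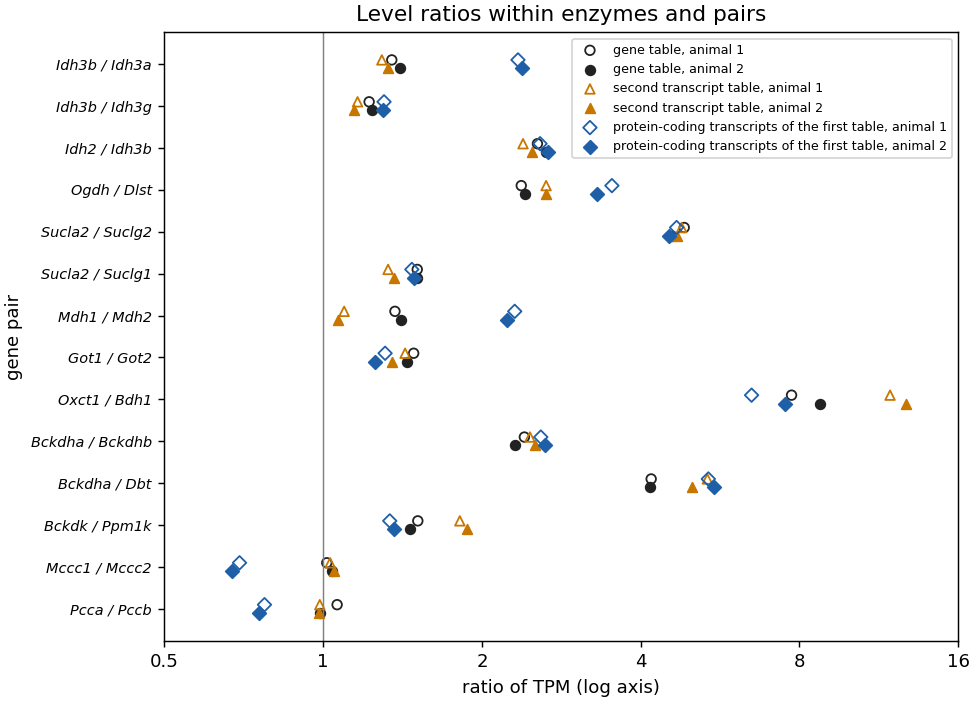
Ratio of TPM for 14 gene pairs on a log axis, in each animal (open and filled symbols), from the gene table, the second transcript table and the protein-coding transcripts of the first table. Sucla2 over Suclg2 stays between 4.53 and 4.84 in all of them, while Mdh1 over Mdh2 and Oxct1 over Bdh1 move with the table used.

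The animals were then compared gene by gene on reads, after library sizes had been scaled by TMM, a trimmed mean of ratios. This scaling moved the median log2 ratio of reads over all genes from 0.08, by total gene counts, to -0.0024. The TPM shift described above is on another scale, and TPM did not enter the comparison. No member differed by 2-fold or more, where 1.3% of 16133 genes did (0.446% higher in animal 2 and 0.855% higher in animal 1). With no minimum of fold, 10 of 35 members (28.6%) differed by an exact binomial test of the reads with Benjamini-Hochberg adjustment over all genes, against 11.1% of all genes. Among the 3635 protein-coding genes with at least as many reads as the lowest member, 22.3% did, a share nearer that of the members. This pool is set by a minimum alone and is not matched to the members, some of which have far more reads. The test sees counting error alone, so ordinary variation between animals also passes it, and reads without molecular identifiers are not independent molecules.

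Of these 10 genes, 2 were higher in animal 2 (background 6.5%) and 8 were higher in animal 1 (background 4.65%). Both backgrounds are shares of all 16133 genes tested, so they are not matched to the depth of the members. The higher ones in animal 2 were Cs, with 36127 reads in animal 1 and 39296 in animal 2, and Idh2, with 41614 and 45130, both with a log2 ratio of 0.04. The lower ones were Idh3a, Ogdh, Sucla2 and Got1 of the TCA cycle, with log2 ratios from -0.06 to -0.03, Bdh1 of ketone use, and Ppm1k, Hibadh and Aldh6a1 of branched-chain breakdown. By direction alone, 27 members lay below 0 and 8 above, and 16 of the 17 branched-chain members lay below, with a median log2 ratio of -0.03. The median was -0.01 for the TCA genes, and the median over all 16133 genes was -0.0024. Of the protein-coding genes with at least as many reads as the lowest member, 54.9% lay above 0, with a median of 0.01. The cardiomyocyte markers Myh6, Ryr2 and Tnnt2 lay below 0 as most members did, and their part in this was not tested.

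This split depends on the scaling. When library sizes were taken as total gene counts, 15 members differed, 14 of them higher in animal 2 and 1, Bdh1, higher in animal 1, while 20.5% of all genes differed. Of the 10 genes named above 4 were among them, namely Cs, Idh2, Bdh1 and Ogdh, and Ogdh had turned to the other direction (log2 ratio 0.05). The median over all genes moved to 0.08. Bdh1 was lower in animal 2 under TMM, DESeq2 and total-count scaling alike.

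Bdh1 had the largest difference of any member. It had 3424 reads in animal 1 and 3136 in animal 2, and its scaled level in animal 2 was 0.868 of that in animal 1 (95% binomial interval 0.827 to 0.912, counting error only), with an adjusted p of 4.3e-07 by the exact binomial test. Ppm1k followed, with 4869 and 4653 reads, a ratio of 0.906 (0.870 to 0.943) and an adjusted p of 3.9e-05 by the exact binomial test. Hibadh had 5603 and 5541 reads (ratio 0.938) and Aldh6a1 7924 and 7949 (ratio 0.951). The other ketone gene, Oxct1, had 40020 and 42281 reads and a ratio of 1.002 (0.988 to 1.02), and did not pass the test. Bdh1 shares 533 exonic bases with Gm15743 on the opposite strand, which had 38 and 29 reads. The sources used here do not say whether strand was used in counting.

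**Figure D4:**
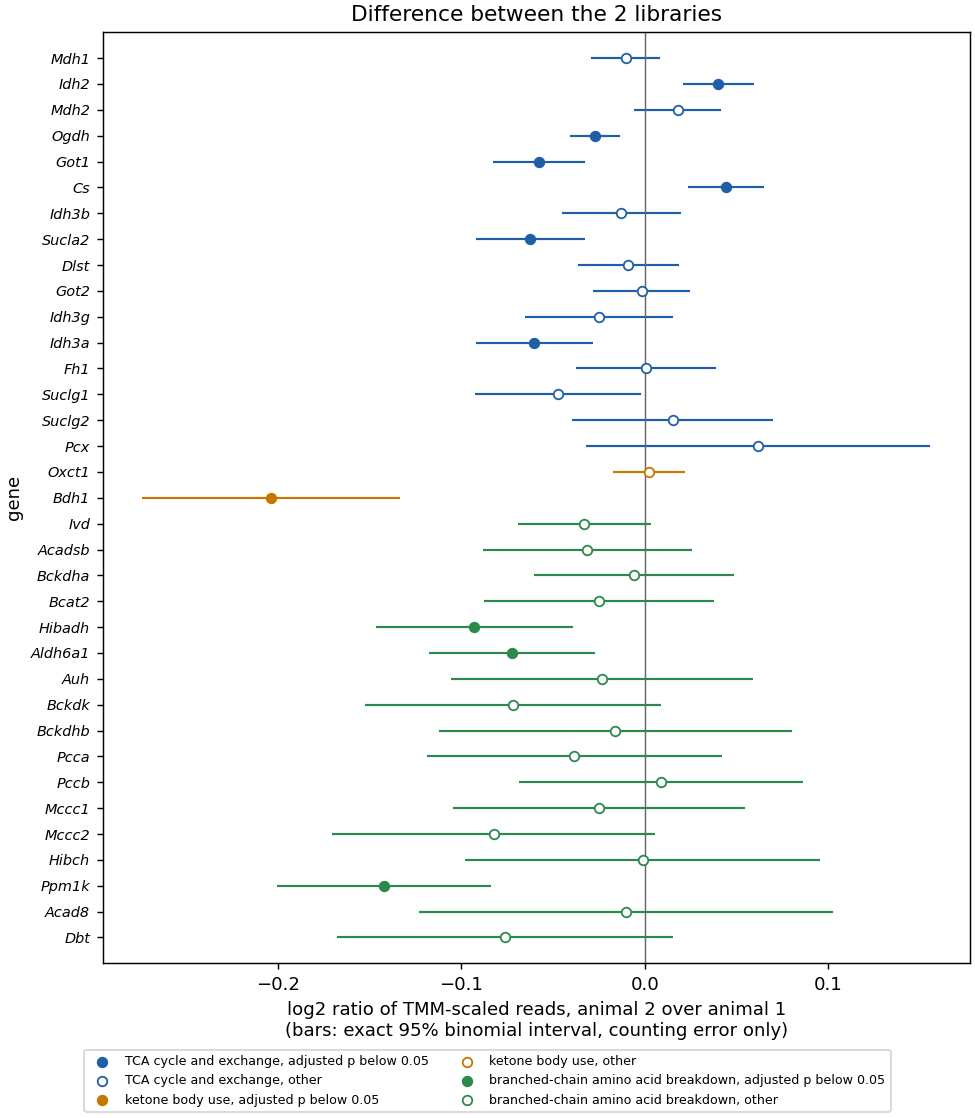
Log2 ratio of TMM-scaled reads, animal 2 over animal 1, for each of the 35 genes, with exact 95% binomial intervals that cover counting error only, and filled points where the adjusted p was below 0.05. Most points lie slightly left of 0 and within 0.1 of it, with Bdh1 (-0.20) and Ppm1k (-0.14) beyond.

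Of the further genes of these pathways, 4 differed between animals by the same test, near the 11.1% of all genes that did, and none by 2-fold. Acly, the cytosolic enzyme that cleaves citrate to acetyl-CoA for lipid synthesis, was at 9.10 TPM in animal 1 and 15.2 TPM in animal 2 (log2 ratio of scaled reads 0.33), and Idh1, the cytosolic isocitrate dehydrogenase, was lower in animal 2 (-0.18). Those were 2 of 13 cycle genes. Klf15, a transcription factor known to promote branched-chain breakdown in heart, was at 22.5 and 29.7 TPM (0.17), and Abat, the aminotransferase of GABA, which also acts late in valine breakdown, was at 3.07 and 2.52 TPM (-0.31), 2 of 12 branched-chain genes tested. None of 6 ketone genes tested passed. Of the 5 white adipocyte markers, 3 were higher in animal 2 by the same test, among them Adipoq at 2.04 and 6.0 TPM and Cfd at 16.1 and 43.4 TPM. The remaining 2, Lep and Retn, were under 1 TPM on average and did not pass. Of 4 brown adipocyte markers, 2 were higher in animal 2, namely Ucp1 (log2 ratio 0.58) and Dio2 (0.57). The part of adipocyte markers in the result was not tested.

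Promoters of the members were searched for 5 motifs on both strands in RefSeq windows of 300 bases around gene starts (GRCm38.p6), which held 44 windows of 33 members. The core site of estrogen-related receptors, AAGGTCA, was in windows of Ogdh and Got1, in 4.55% of member windows and 4.72% of all 32817 windows. The NRF1 motif was in windows of Sucla2, Hibadh and Pccb (6.82% against 4.59%), the ETS motif CCGGAAG in those of Idh3b, Idh3g, Dlst and Auh (9.09% against 8.86%), and the E-box CACGTG in those of Ogdh, Pcx and Mccc2 (11.4% against 7.15%). The cyclic AMP element TGACGTCA was in windows of Mdh2 and Ogdh (9.09% against 1.79%), and for this element and the E-box several overlapping windows of Ogdh count the same matches again. Neither ketone gene held any of these motifs, which says only that these letters are not in these windows.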

How the data were processed

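Total RNA-seq of 2 mouse hearts was analysed from the deposited gene table and 2 transcript tables of each library. Per the file headers, the authors gave expected counts (estimated reads per gene or transcript, not normalised) and TPM in the gene table and the first transcript table, which have the layout of RSEM, and estimated counts and TPM in the second, which has the layout of kallisto. The deposited score used here, the posterior standard deviation of each count, measures read assignment within 1 library; it was 0 for 32 of the 35 genes and at most 0.320% of the reads. The deposited readme names the M21 annotation, and the labels name mm10. The sources used here do not give the aligner, the tool versions or the strand setting of the counting.

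Identifiers were matched to GENCODE M21. Entries with a number in place of an identifier held 4 reads in animal 1 (9.5e-06%) and 2 in animal 2 (4.76e-06%) and were left out. Levels are the deposited TPM, as mean ± SD. With 1 group, edgeR's quasi-likelihood test could not be fitted. Expected counts were rounded, genes with at least 20 reads over both libraries were kept, and a two-sided exact binomial test set the reads of both animals against TMM-scaled library sizes (edgeR 4.0.16, R 4.3.3), with Benjamini-Hochberg adjustment at 0.05 over 16133 genes, with and without a 2-fold minimum; scipy 1.17.1 gave p-values and exact intervals. The step was tested on simulated counts with counting error alone and planted changes of more than 2-fold. That does not cover variation between animals or differences as small as those of the members. DESeq2 1.42.0 gave alternative size factors. Further alternatives were total gene counts, other read minimums, the second table, a filter on assignment spread, other TPM scales, leaving out an animal and, added after seeing the data, protein-coding transcripts alone. The 35 genes and all lists were chosen with earlier results of these data known. Named are all 35 genes, and of the other pathway genes those of at least 100 TPM, under 1 TPM or past the test, of which 1 is not reported here. Members with a major transcript under 70% in either table are described by transcript. Exon sequences were read from the GENCODE M21 transcripts.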

Additional observations from a re-analysis of the deposited data

How the results depend on the processing

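The order of the 3 pathway sums held under every setting tried, but their size moved. For the TCA cycle, ketone use and branched-chain breakdown the sums were 7443, 827 and 1205 TPM in the second quantification, 4902, 541 and 818 on length-corrected reads scaled by TMM, and 14013, 1545 and 2338 TPM when TPM was rescaled over nuclear protein-coding genes. With protein-coding transcripts alone, chosen after seeing the data, ketone use fell to 349 TPM and branched-chain breakdown to 729 TPM, and the ratio of TCA to branched-chain medians became 7.89. Of the 14 level ratios, 2 turned: Mccc1 over Mccc2 was 0.683 with protein-coding transcripts alone, and Pcca over Pccb was 0.984 in the second quantification, 0.765 with protein-coding transcripts alone and 0.984 to 1.06 when either animal was left out. Total gene counts in place of TMM raised the genes that differed between animals from 1798 to 3313 and turned the log2 ratios of Idh3a (0.019), Ogdh (0.052), Sucla2 (0.017), Got1 (0.022) and Aldh6a1 (0.0070); the scaling differs by construction. Ppm1k, Hibadh, Idh1 and Abat then no longer passed (adjusted p 0.12, 0.82, 0.17 and 0.094, exact binomial test), nor did Ogdh and Sucla2 in the second quantification (0.17 and 0.058). The other settings gave the same 10 members, except 8 in the second quantification.

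No paired analysis was possible because the series has 1 group. With 1 library per animal, no difference has a replicate check, and leaving out an animal leaves no comparison. 1 parent of each animal was of CAST origin while mm10 is a C57BL/6 assembly, and the effect of this on the counts was not tested. Intervals cover counting error only. Bckdha shares 1171 exonic bases with B3gnt8 on the opposite strand (90 and 101 reads) and Aldh6a1 1078 with Bbof1 (22 and 39 reads). Other opposite-strand partners had more reads but shared fewer bases. They were BC037032 with Oxct1 (467 bases, 236 and 230 reads) and Ggact with Pcca (241 bases, 328 and 317 reads). Wdpcp shared 52 bases with Mdh1 (117 and 118 reads) and Nop56 5 with Idh3b (636 and 577 reads). An exchange of reads with any of these genes was not tested.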
